A study of Mus musculus with 12 samples.

Results

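The collagen chain genes are the protein-coding genes of the count matrix whose symbol reads Col, a number, a and a number, each encoding an alpha chain of a collagen. There were 44 of them among 49585 genes. Polyadenylated RNA of whole lung was sequenced in 12 libraries, 3 in each of 4 groups of C57BL/6J mice, all bearing a subcutaneous MO4 melanoma. The combination group was 22 months old and was treated with 2 antibodies, anti-PD-1, which blocks an inhibitory receptor of T cells, and anti-IL-21R. The aged anti-PD-1 group was 22 months old and had anti-PD-1 alone, and the aged control group, also 22 months old, had a rat antibody of matched isotype. The young anti-PD-1 group was 2 months old and had anti-PD-1, so age was compared under anti-PD-1. The anti-PD-1 or control antibody was given on days 3, 7 and 11 after the tumour cells, and all 4 groups carried the tumour. The labels do not say that each library is a mouse of its own, so the p-values speak only of the spread among these samples, which may be technical. The tumour lay outside the profiled organ. Of 7 melanocyte markers, 4 were at 0 in at least 1 library (Tyr in 10 and Tyrp1 in 7 of 12), whereas Mlana had 25 to 83, Pmel 38 to 104 and Mitf 207 to 340 counts per library.

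Collagens are trimers of alpha chains wound into a helix, and the chains of a trimer often come from different genes. Fibrillar collagens (types I, III and V among them) carry tension in vessel walls, airways and the pleura. Type IV forms the network of basement membranes, on which lung epithelium and endothelium rest, type VI forms beaded filaments around cells, and fibril-associated chains decorate fibril surfaces. The files' 44 genes hold 11 fibrillar chains, 9 chains of basement membranes and their border zone, 9 fibril-associated chains, 6 type VI chains, 3 chains of short-chain networks, 4 transmembrane chains and 2 others (Col26a1 and Col28a1).

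The 6 type IV genes sit in 3 head-to-head pairs. The 2 pairs whose chains were called lower in aged lungs, as given below, are shown. Col4a3 and Col4a4 were not called there, and no window was given for Col4a3. Col4a1 and Col4a2 encode the chains of the common type IV trimer, and Col4a5 and Col4a6 lie next to each other on the X chromosome. In the deposited coordinates (mm10) Col4a1 spans 11198423 to 11312826 on chromosome 8, Col4a2 11312805 to 11449287 there, Col4a6 141165403 to 141474076 on chromosome X and Col4a5 141475385 to 141689234 there. By these coordinates the annotated Col4a1 and Col4a2 overlap by 22 bases at their starts, 1308 bases lie between Col4a6 and Col4a5, and 71 bases lie between Col4a4 and Col4a3. The windows are 300 bases around a gene's start from RefSeq (GRCm38.p6), 5′ to 3′ on the gene's own strand: chr8:11312777-11313076 (minus strand) for Col4a1, chr8:11312555-11312854 (plus) for Col4a2, chrX:141475169-141475468 (plus) for Col4a5 and chrX:141474027-141474326 (minus) for Col4a6. Capitals mark matches to 2 short promoter motifs. The motif CCAAT is the box that nuclear factor Y binds, while the motif GGGCGG is the box that Sp1 binds. The TATA motif TATAAA was searched as well, and all 3 were read on both strands, so that a match on the opposite strand appears as the reverse complement; no matches overlap.
Col4a1: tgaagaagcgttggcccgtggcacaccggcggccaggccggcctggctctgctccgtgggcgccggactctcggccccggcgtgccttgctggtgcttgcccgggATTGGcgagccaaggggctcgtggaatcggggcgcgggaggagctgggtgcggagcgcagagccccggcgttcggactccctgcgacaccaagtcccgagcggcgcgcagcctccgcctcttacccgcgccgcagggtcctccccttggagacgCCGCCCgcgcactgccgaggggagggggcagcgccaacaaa
Col4a2: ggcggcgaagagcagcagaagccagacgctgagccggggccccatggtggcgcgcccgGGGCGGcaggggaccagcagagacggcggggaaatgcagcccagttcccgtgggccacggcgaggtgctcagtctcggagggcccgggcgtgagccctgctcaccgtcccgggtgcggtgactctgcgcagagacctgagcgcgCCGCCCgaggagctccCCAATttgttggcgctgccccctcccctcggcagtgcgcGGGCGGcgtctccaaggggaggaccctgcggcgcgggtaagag
Col4a5: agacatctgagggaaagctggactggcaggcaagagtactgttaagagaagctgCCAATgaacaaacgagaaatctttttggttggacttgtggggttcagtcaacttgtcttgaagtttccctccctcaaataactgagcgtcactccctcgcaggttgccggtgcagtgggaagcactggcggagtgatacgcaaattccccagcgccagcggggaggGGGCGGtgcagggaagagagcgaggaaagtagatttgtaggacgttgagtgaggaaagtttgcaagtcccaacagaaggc
Col4a6: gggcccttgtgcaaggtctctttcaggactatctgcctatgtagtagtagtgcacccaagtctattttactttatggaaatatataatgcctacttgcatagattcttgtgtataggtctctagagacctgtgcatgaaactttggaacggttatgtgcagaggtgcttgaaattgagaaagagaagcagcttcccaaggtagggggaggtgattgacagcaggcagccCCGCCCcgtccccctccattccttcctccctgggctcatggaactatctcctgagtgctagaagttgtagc
The Col4a1 and Col4a2 windows share 78 bases, read on opposite strands. The TATA motif was not among the letters of these 4 windows. A window was given for 35 of the 44 genes (38 windows), of which 60.5% held the Sp1 motif, against 35.7% of all 32851 windows. The CCAAT motif was in 34.2% of the collagen windows against 37.4% of all, and the TATA motif in 13.2% against 13.6%. The matches describe letters and no binding was measured.

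Counts summed to 16021877 to 22058620 per library. Levels are given as CPM, counts scaled to library size with TMM factors. Mitochondrially encoded genes took 13.4 ± 1.72% of counts in the combination group, 9.35 ± 2.18% in aged anti-PD-1, 8.56 ± 1.62% in aged control and 6.76 ± 0.628% in young anti-PD-1 lungs (SD, n = 3 each). Every gene on the lists for endothelium, type 1 alveolar cells, fibroblasts and smooth muscle had counts in every library. In whole lung, fewer cells of a type and less RNA per cell cannot be told apart. The clock gene Per3 had 17.2, 53.7 and 31.3 CPM in aged anti-PD-1 and 14.4, 12.3 and 10.1 CPM in young anti-PD-1 libraries. It had 12.6, 7.45 and 11.3 CPM in aged control and 9.73, 7.61 and 10.8 CPM in combination libraries. Its relation to the collagen values was not tested.

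Collagen chain counts were a small share of each library. They made up 0.142 ± 0.0259% of counts in combination, 0.197 ± 0.0553% in aged anti-PD-1, 0.165 ± 0.00655% in aged control and 0.295 ± 0.0104% in young anti-PD-1 lungs. Per kilobase of exon, over the 12 libraries, the highest were the type IV chains Col4a2 (41.9 CPM per kb) and Col4a1 (37.1 CPM per kb). Col3a1, the chain of type III collagen, followed at 24.9 CPM per kb, then Col6a1 at 22.8, Col1a1 at 21.1 and Col1a2 at 17.8 CPM per kb. Col1a1 and Col1a2 encode the 2 chains of type I collagen. Col4a2 and Col4a1 were the highest in each of the 4 groups. The order of the next 3 differed between groups: Col1a1 (20.7) stood above Col6a1 (20.2) in aged anti-PD-1 lungs, and Col6a1 (21.7) above Col3a1 (21.1 CPM per kb) in aged control lungs. The chains Col4a3, Col4a5 and Col4a4, which form the type IV trimer of alveolar and kidney basement membranes, stood at 11.8, 11.1 and 9.23 CPM per kb. Exon lengths came from GENCODE M21, in which all 44 genes were found, 43 with the files' coordinates.

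**Figure D1:**
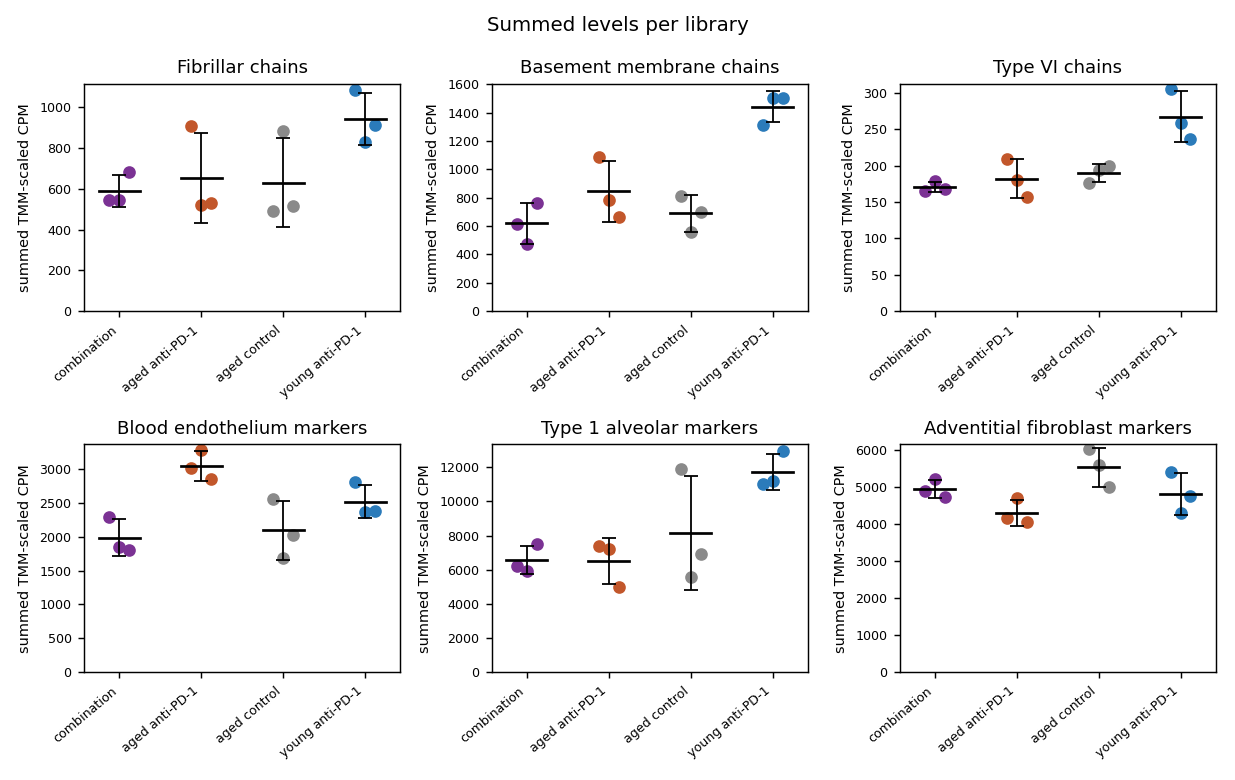
Summed TMM-scaled CPM per library (y axis) of fibrillar, basement membrane and type VI chains (upper panels) and of marker lists for blood endothelium, type 1 alveolar cells and adventitial fibroblasts (lower panels), by group. Points are libraries, bars the mean and error bars the SD (n = 3). Basement membrane chains summed to 661 to 1084 CPM in aged anti-PD-1 lungs, against 1315 to 1505 CPM in young anti-PD-1 lungs.

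The low-count filter left 34 of the 44 genes. The 10 that did not pass were listed at no more than 12 counts in any library. Col9a1, a cartilage fibril-associated chain, was at 0 in all 12. The highest count in a library was 3 for Col25a1, 4 for Col19a1, 5 each for Col9a2 and Col10a1, and 6 for Col11a1. It was 10 for Col22a1 and 12 each for Col2a1, Col24a1 and Col6a4. Col2a1, the main fibrillar chain of cartilage, had 7, 1 and 5 counts in the combination libraries, 0, 1 and 0 after anti-PD-1 in old mice, 5, 9 and 9 in the control libraries and 4, 2 and 12 in young ones. Of 10 chondrocyte markers, 5 were at 0 in at least 1 library, Acan in 10 of 12. Matn4 (625 to 2273 counts per library) and Cytl1 (254 to 656) made up most of the list, none of the other 8 exceeding 44 counts, and the list summed to 64.3 to 76.6 CPM in the combination, 56.5 to 78.0 CPM in aged anti-PD-1, 66.5 to 118 CPM in aged control and 118 to 141 CPM in young lungs. The part of cartilage in these counts was not tested.

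Aged and young lungs under anti-PD-1 were compared to ask how collagen expression differed with age. With edgeR's quasi-likelihood test and Benjamini-Hochberg adjustment over 18556 genes, 8 of the 34 tested chains were lower in aged lungs and 0 were higher (0 higher with DESeq2 or limma-voom). At an unadjusted p under 0.05, 2 chains were higher and 12 lower, and 5478 of all 18556 genes were under that limit in either direction. Of all genes tested, 7.16% were called lower and 8.09% higher, so that 15.3% were called. The tested chains had a median log2 fold change of -0.28 against -0.01 over all genes. In 12 chains every aged library lay below every young one, and in 2 every aged library lay above; over all genes these shares were 19.9% and 19.7%. The class medians were -0.70 for basement membrane chains (4 of 9 called lower), -0.34 for fibril-associated chains (1 of 5), -0.28 for fibrillar chains (1 of 8), -0.21 for type VI (2 of 5), 0.39 for the 2 network chains and -0.35 for the 3 transmembrane chains.

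Type IV chains, the scaffold of basement membranes, made up 4 of the 8 lower genes. Col4a5 had 73.0, 60.1 and 37.8 CPM in the aged anti-PD-1 libraries, against 116, 137 and 149 CPM in the young anti-PD-1 libraries. The groups did not overlap, and the log2 fold change was -1.23 ± 0.26 (SE; edgeR adjusted p = 0.00937). Its neighbour Col4a6 had 16.9, 12.3 and 9.48 CPM in aged, against 21.1, 20.01 and 21.8 CPM in young libraries, a log2 fold change of -0.70 ± 0.19 (edgeR adjusted p = 0.0257). Col4a1 had 352, 249.8 and 243 CPM in aged, against 399.9, 433 and 427 CPM in young libraries. Each aged library was below each young one, the first aged library nearest to them, and the log2 fold change was -0.58 ± 0.16 (edgeR adjusted p = 0.0283). Col4a2 had 338, 249.6 and 217 CPM in aged, against 392, 456 and 467 CPM in young libraries, with a log2 fold change of -0.71 ± 0.19 (edgeR adjusted p = 0.0218).

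Col4a3 and Col4a4, partners of Col4a5 in the alveolar trimer, had larger fitted differences than Col4a1 but a wider spread. Col4a3 had 141, 93.7 and 59.1 CPM in aged, against 191, 238 and 234 CPM in young libraries, with a log2 fold change of -1.17 ± 0.38 (edgeR adjusted p = 0.0636). Col4a4 had 115, 86.5 and 54.5 CPM in aged, against 151, 181 and 170.0 CPM in young libraries, with a log2 fold change of -0.97 ± 0.31 (edgeR adjusted p = 0.0534). Neither pair of groups overlapped, and neither passed the threshold in this fit. Both were called lower by DESeq2, by limma-voom and when the 2 groups were fitted alone. Exons of Col4a3 share 563 of 9967 bases with C430014B12Rik on the opposite strand, and the strand setting of the counting is not given in the sources used here, so the Col4a3 counts are uncertain to that extent. Col15a1 and Col18a1, the endostatin-bearing chains of vascular basement membranes, had log2 fold changes of 0.03 and -0.02, with 95% intervals of -0.50 to 0.55 and -0.63 to 0.59. The sign of the Col18a1 value depended on the scaling. Col7a1, the anchoring fibril chain of epithelial basement membranes, had 6.72, 6.33 and 6.53 CPM in aged, against 5.66, 4.15 and 4.95 CPM in young libraries; its groups did not overlap and its edgeR adjusted p was 0.242.

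**Figure D2:**
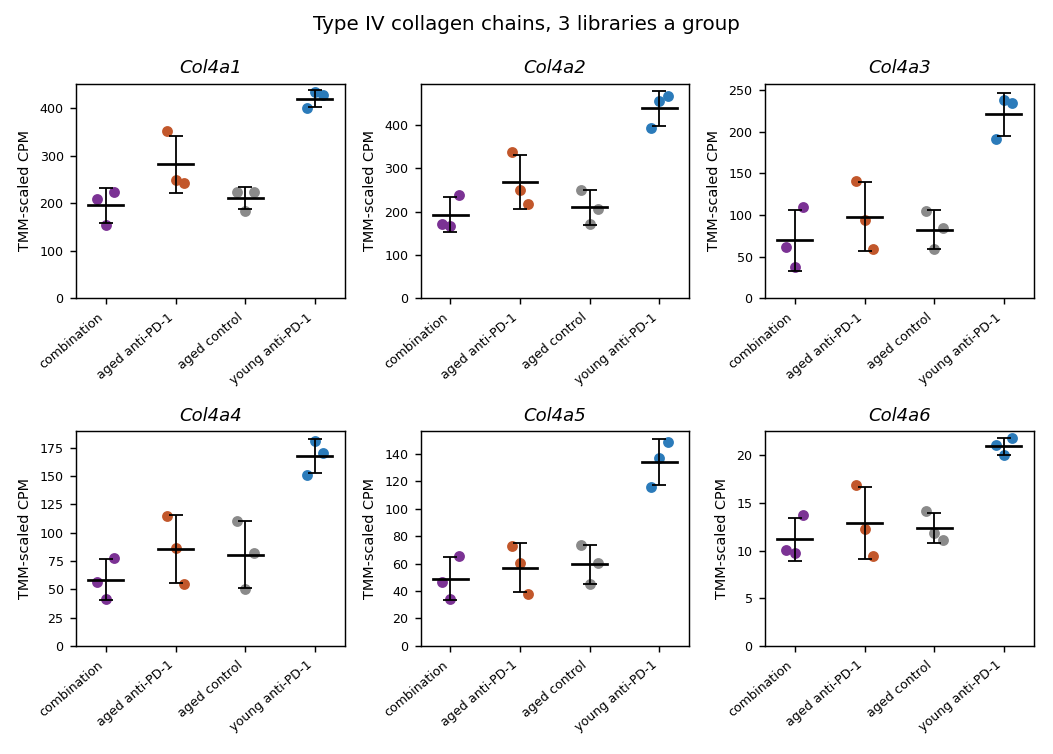
TMM-scaled CPM (y axis) of the 6 type IV chains in each library, by group. Points are libraries, bars the mean and error bars the SD (n = 3). In each panel the 3 young anti-PD-1 libraries lie above the 9 aged libraries.

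Col6a1 and Col6a2, which lie on chromosome 10 (76708792 to 76726168 and 76595762 to 76623630), were lower, and Col6a3 did not pass. Col6a1 had 100.3, 88.5 and 76.5 CPM in aged, against 149, 138 and 125 CPM in young libraries, without overlap, and a log2 fold change of -0.64 ± 0.12 (edgeR adjusted p = 0.00492). Col6a2 had 68.2, 55.8 and 49.5 CPM in aged, against 104, 86.9 and 76.4 CPM in young libraries, with -0.62 ± 0.13 on the log2 scale (edgeR adjusted p = 0.00815). Col6a3, the remaining chain of the usual type VI trimer, had 38.4, 34.1 and 29.1 CPM in aged, against 50.7, 32.4 and 34.3 CPM in young libraries, which overlap. Its log2 fold change was -0.21 ± 0.22 (edgeR adjusted p = 0.566). The low-level chains Col6a5 and Col6a6 stayed under 2 CPM in every library.

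Of the 8 fibrillar chains tested, Col5a2 was the 1 called. Col5a2, which with Col5a1 builds the type V collagen that starts fibrils, had 57.8, 39.6 and 35.0 CPM in aged, against 85.5, 73.4 and 71.0 CPM in young libraries, with no overlap. Its log2 fold change was -0.80 ± 0.20 (edgeR adjusted p = 0.0168). Col5a1 had 33.6, 21.2 and 20.6 CPM in aged, against 34.5, 29.0 and 24.3 CPM in young libraries, and its fitted value of -0.22 ± 0.20 did not pass. Col3a1 had 308, 154 and 176 CPM in aged, against 439, 331 and 361 CPM in young libraries. The groups did not overlap, and the log2 fold change of -0.83 ± 0.32 had an edgeR adjusted p of 0.106. Col1a1 had 203, 99.5 and 106 CPM in aged, against 206, 150.4 and 174 CPM in young libraries, and the groups overlapped (edgeR adjusted p = 0.439). Col1a2 had 278, 181 and 172 CPM in aged, against 294, 227 and 263 CPM in young libraries, which also overlapped (edgeR adjusted p = 0.319). Col11a2, a type XI chain, and Col27a1 had positive fitted values. Col27a1 overlapped between ages (0.29 ± 0.17 on the log2 scale; edgeR adjusted p = 0.257). Col11a2 stood at 5.63, 5.33 and 6.88 CPM in aged, against 3.74, 4.0 and 4.31 CPM in young libraries, without overlap and with an edgeR adjusted p of 0.078.

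**Figure D3:**
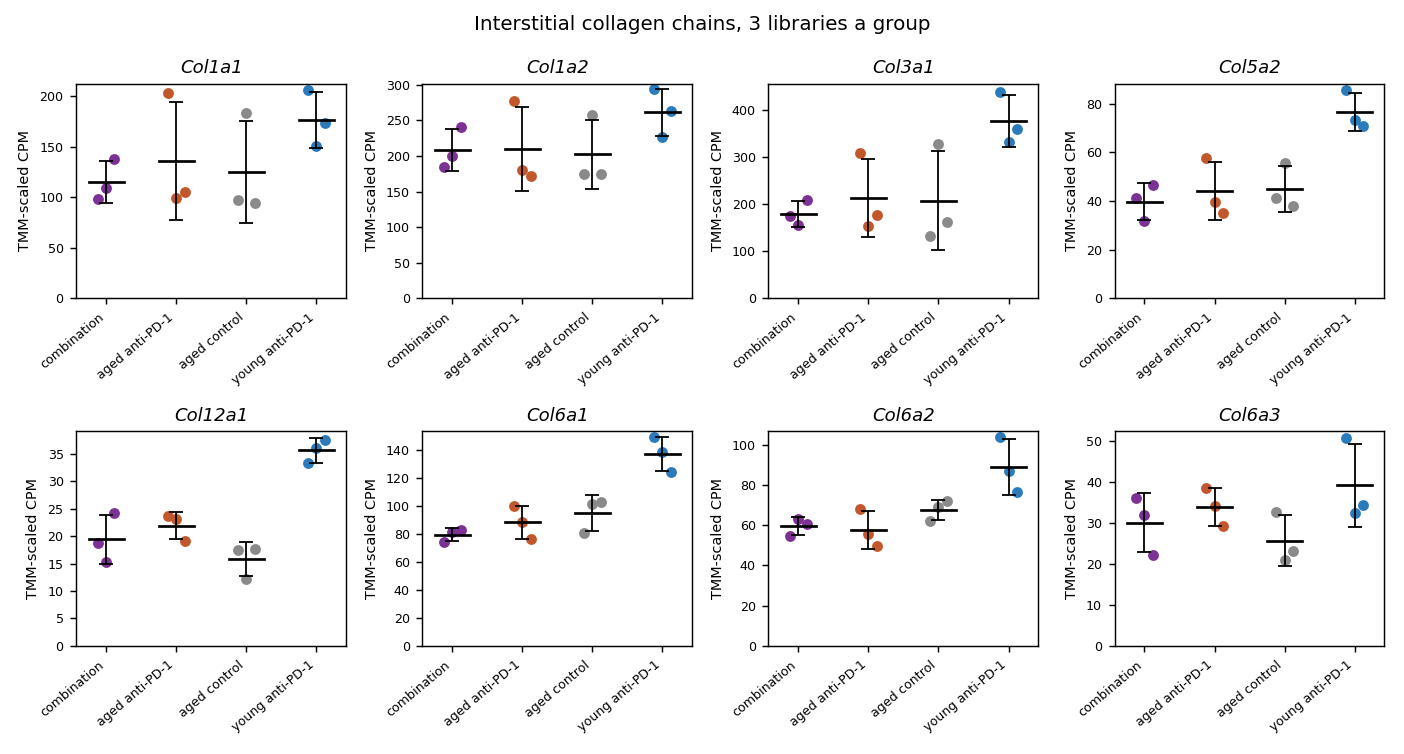
TMM-scaled CPM (y axis) of interstitial chains in each library, by group; points are libraries, bars the mean, error bars the SD (n = 3). Col1a1, Col1a2 and Col6a3 overlap between aged and young anti-PD-1 lungs, and Col3a1, Col5a2, Col12a1, Col6a1 and Col6a2 do not. Of the chains without overlap, Col3a1 was not called.

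Col12a1, a fibril-associated chain that coats type I fibrils, was the only member of its class past the threshold. It had 23.6, 23.1 and 19.1 CPM in aged, against 33.2, 36.0 and 37.6 CPM in young libraries, with a log2 fold change of -0.70 ± 0.17 (edgeR adjusted p = 0.0143). Col14a1 and Col16a1, of the same class, had -0.36 and -0.34 without passing. Col17a1, the transmembrane collagen of hemidesmosomes, had 4.20, 2.97 and 3.29 CPM in aged, against 6.48, 4.90 and 5.10 CPM in young libraries, with an edgeR adjusted p of 0.117. The low chains Col9a3 and Col20a1 share exon bases with Tcfl5 and 9230112E08Rik, and their counts are uncertain for that reason.

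Ratios between chains within a library were set side by side by age. The log2 ratio of Col1a1 to Col3a1 counts within a library was -0.74 to -0.60 in aged anti-PD-1 and -1.14 to -1.05 in young lungs, a pair taken up after its values were seen. The ratio of Col5a1 to Col5a2 was -0.90 to -0.76 in aged, against -1.55 to -1.31 in young lungs, and the Col4a5 to Col4a6 ratio was 2.00 to 2.29 against 2.46 to 2.77. The Col4a3 to Col4a1 ratio, which sets the alveolar trimer against the common one, was -2.04 to -1.32 in aged, against -1.06 to -0.87 in young lungs. By contrast, Col4a1 to Col4a2 was 0.00 to 0.16 in aged, against -0.13 to 0.03 in young lungs. The Col1a1 to Col1a2 ratio was -0.86 to -0.45 in aged, against -0.60 to -0.51 in young lungs, and the Col6a1 to Col6a2 ratio 0.56 to 0.67 against 0.52 to 0.71. The Col4a3 to Col4a4 ratio was 0.11 to 0.30 in aged, against 0.34 to 0.46 in young lungs. Of these 8 ratios, the Col4a1 to Col4a2, Col1a1 to Col1a2 and Col6a1 to Col6a2 ratios overlapped between ages and the other 5 did not. Ratios of other gene pairs were not computed, so there is no background for that count. These are descriptions, since the smallest p of an exact permutation test with 3 libraries a group is 0.1.

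Leaving out single libraries decided several calls. With aged anti-PD-1 library 1 left out, which had the highest level of its group in Col1a1, Col3a1 and all 6 type IV chains, 11 chains were lower and the chains' median was -0.53. Without aged libraries 2 and 3 in turn 4 and 3 chains were lower, and without young libraries 1, 2 and 3 in turn 6, 5 and 4. Col4a5, Col6a1 and Col6a2 were lower in all 6 fits. Col4a1 lost its call without aged library 2 or 3 and without young library 2 or 3 (largest edgeR adjusted p 0.122), and so did Col4a2 (largest 0.0964). Col4a6 kept its call when aged library 1 was left out and lost it in the other 5 fits (largest edgeR adjusted p 0.108). Col5a2 lost it without aged library 2 or 3 and without young library 1 (largest 0.0758), and Col12a1 without aged library 3 (0.0701) or young library 3 (0.0691). Col3a1, Col4a3 and Col4a4 gained a call without aged library 1, with edgeR adjusted p-values of 0.033, 0.0353 and 0.032.

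**Figure D4:**
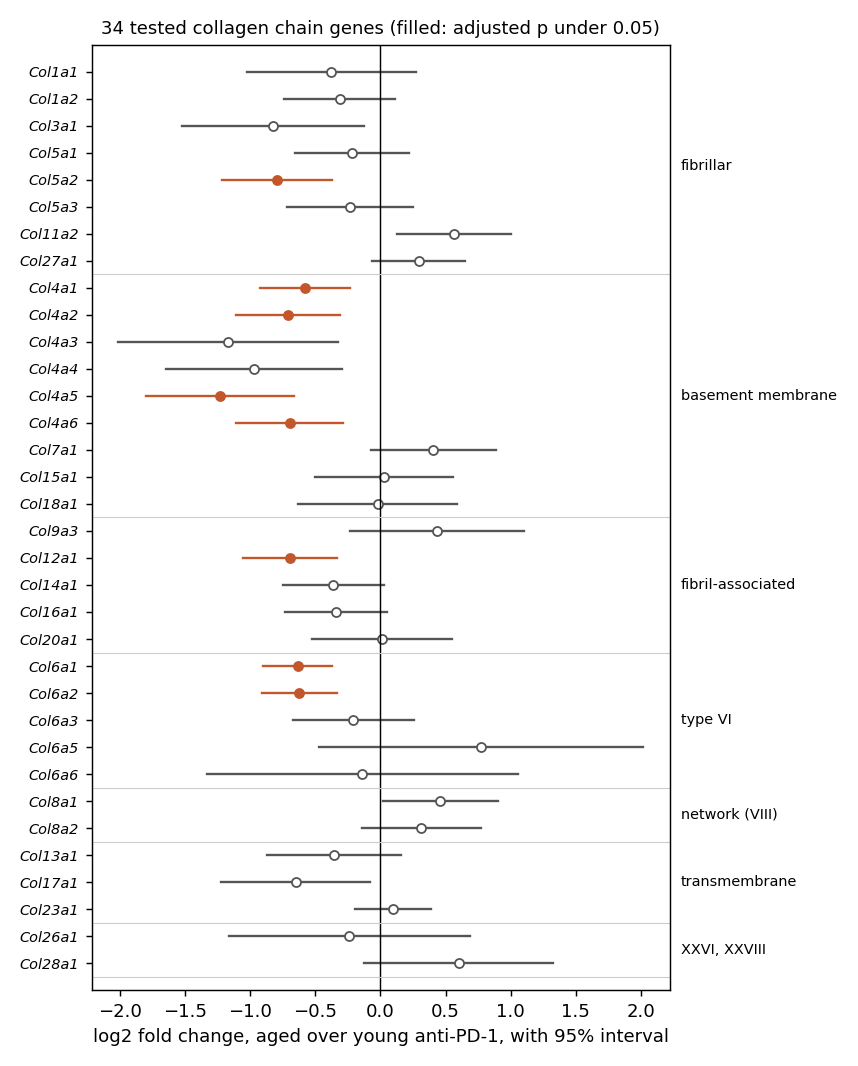
Log2 fold change of aged over young anti-PD-1 lungs (x axis) for the 34 tested chains, ordered by class (y axis), with 95% intervals from the edgeR fit. Filled points are the 8 chains with an adjusted p under 0.05, which all lie below 0.

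All 9 aged libraries, whatever the antibodies, lay below all 3 young ones in 12 chains: Col12a1, Col17a1, Col3a1, the 6 type IV chains, Col5a2, Col6a1 and Col6a2. In Col11a2 they lay above. Over all genes these shares were 5.53% below and 5.5% above. The aged anti-PD-1 libraries, which had the antibody that the young ones had, are part of this split and lay below the young ones in the same 12 chains. The other 6 aged libraries differ from the young ones in treatment as well as age.

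**Figure D5:**
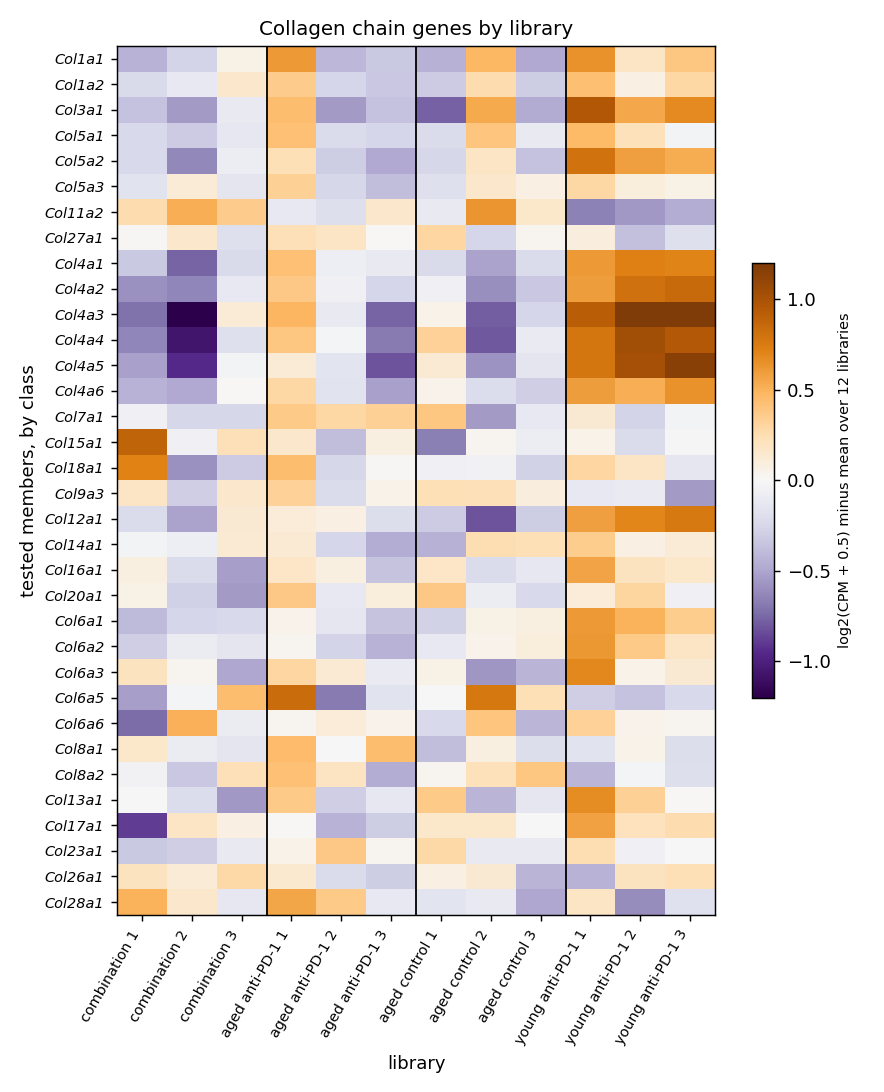
Log2(CPM + 0.5) minus each gene's mean over the 12 libraries (colour) for the 34 tested chains (y axis) in each library (x axis), by group. The 3 young libraries, at the right, have the highest values of the 12 in 12 chains, the type IV chains among them.

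Cell-type markers were counted in the same comparison, in which 7.16% of all genes were called lower and 8.09% higher. Of 11 type 1 alveolar markers 8 were lower and 0 higher in aged lungs (median -0.86). Their sum was 4976 to 7391 CPM in aged anti-PD-1, against 11048 to 12944 CPM in young lungs. Of the mesothelial markers 8 of 9 were lower (median -1.30; sums 331 to 456 against 786 to 817 CPM), and none of these genes was at 0 in any library. Endothelial markers had 1 of 12 higher (Vwf) and 1 lower (Aplnr), both near the shares over all genes. Their sums were 2852 to 3290.2 CPM in aged and 2368 to 2807 CPM in young lungs. Adventitial fibroblast markers were lower in 3 of 10, with sums of 4052 to 4702 against 4284 to 5397 CPM, and smooth muscle markers in 4 of 9. Alveolar fibroblast markers were lower in 1 of 10, near the share over all genes. Pericyte markers were higher in 2 of 10 (Rgs5 at 2.21) and lower in 0, with sums of 311 to 351 against 331 to 388 CPM. Fitted values of the 10 pericyte markers were positive in 4 and negative in 6 (median -0.13). Squamous epithelial markers, of which Dsg3 was at 0 in all 12 libraries, were lower in 4 of the 8 tested, with sums of 10.9 to 20.6 CPM in aged and 25.2 to 55.2 CPM in young lungs. The part of these cell types in the collagen values was not tested.

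Other genes of collagen biosynthesis were taken from lists. Over all genes 7.16% were called lower and 8.09% higher in aged than young lungs. Of 25 entries for folding and modification (24 symbols, Mia2 having 2), 7 were lower and 3 higher in aged than young lungs. Among them Serpinh1, the collagen chaperone HSP47, had -0.60 and P3h4, part of a prolyl 3-hydroxylase complex, -0.61, while Fkbp14, an isomerase of the endoplasmic reticulum, had 0.67 (log2 fold change). Of 11 genes for procollagen processing and cross-linking, 2 were lower, Pcolce (-0.51) and Pcolce2 (-0.46), enhancers of propeptide removal. Of 25 fibril-associated matrix genes 8 were lower and 0 higher, such as Sparc (-1.13), which binds collagen, and Fbln5 (-0.94), an elastic fibre protein. Basement membrane partners were lower in 7 and higher in 2 of 17, with Lamb3 (-0.95), a laminin chain, lower and Lamc3 (0.98) higher. Degradation genes were lower in 4 and higher in 2 of 18. Mmp16, a membrane-type metalloproteinase, averaged 0.0921 CPM in aged, against 0.970 CPM in young lungs, and Mrc2 (-0.83), a receptor that takes up collagen, Mmp15 (-0.54) and the inhibitor Timp2 (-0.35) were the other 3 lower ones. Mmp12, the macrophage elastase, at 1.52 and Mmp19 at 0.96 were higher. Collagen receptors were higher in 2 and lower in 1 of 9: the platelet receptor Gp6 at 1.88, Lair1, an inhibitory receptor of leukocytes, at 0.84, and Ddr1, a receptor tyrosine kinase, at -0.76. Genes of the TGF-beta axis were higher in 3 and lower in 4 of 19, with Tgfb2 at -0.86 and Ltbp3 at -0.79 among the lower ones. Fitted values of these 19 were positive in 9 and negative in 10 (median -0.02).

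In old mice, anti-PD-1 was set against the control antibody. EdgeR's quasi-likelihood test called 0 of the 34 chains in either direction, against 10.9% of all genes (5.34% higher, 5.58% lower). At an unadjusted p under 0.05, 3 of the 34 chains were higher (Col4a1, Col12a1 and Col8a1) and 0 lower. Among all 18556 genes, 5370 were under that limit in either direction. DESeq2 and limma-voom called 0 chains. The median log2 fold change was 0.06 for the chains and -0.02 for all genes. Col4a1 and Col12a1 did not overlap between the groups, both higher after anti-PD-1, and 0 chains were lower without overlap; over all genes 16.1% were higher and 16.4% lower in that way. Col4a1 had 352, 249.8 and 243 CPM in aged anti-PD-1, against 223, 183 and 224 CPM in aged control libraries, with 0.42 ± 0.16 on the log2 scale (edgeR adjusted p = 0.103). Col12a1 had 23.6, 23.1 and 19.1 CPM in aged anti-PD-1, against 17.6, 12.2 and 17.6 CPM in aged control libraries (0.47 ± 0.17; edgeR adjusted p = 0.0903). Col3a1 had 308, 154 and 176 CPM in aged anti-PD-1, against 132, 327 and 162 CPM in aged control libraries, so the second control library was the highest of the 6. Its fitted value was 0.04 ± 0.32. The chains' median was -0.19 with the first aged anti-PD-1 library left out and -0.03 with the third control library left out.

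In the same comparison 8 of 12 endothelial markers were higher and 0 lower, with Pecam1 at 0.73 and a sum of 2852 to 3290.2 CPM in aged anti-PD-1, against 1694 to 2565 CPM in aged control lungs. Pericyte markers were higher in 2 of 10 and lower in 0 (sums 311 to 351 CPM in aged anti-PD-1, against 167 to 322 CPM in aged control lungs). Smooth muscle markers were lower in 4 of 9 and higher in 0 (sums 771 to 976 against 1169.6 to 1579.5 CPM). Squamous epithelial markers were lower in 3 of the 8 tested (sums 10.9 to 20.6 against 25.8 to 67.6 CPM). Type 1 alveolar markers had no call of 11. Mesothelial markers were lower in 7 of 9 and adventitial fibroblast markers in 5 of 10. Among basement membrane partners 3 of 17 were higher: Nid1 (0.78), Pxdn (0.72), the peroxidasin that cross-links type IV collagen, and Lamc3 (0.68). Fibril-associated matrix genes were higher in 1 and lower in 6 of 25, with Dcn, a fibril-binding proteoglycan, at -0.70. Folding genes were higher in 2 (Fkbp14 at 0.97 and Colgalt1) and lower in 1 of 25 entries, degradation genes lower in 2 of 18 (Mmp16, and Mmp9 at -1.16). Over all genes 5.34% were called higher and 5.58% lower. Genes for procollagen processing had no call of 11, and the TGF-beta axis had 2 higher and 2 lower of 19. Collagen receptors were higher in 1 and lower in 1 of 9: Itga1, the integrin chain that binds type IV collagen, at 0.98 and Ddr1 at -0.55. The part of these cell types in the collagen values was not tested here either.

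Combination against aged anti-PD-1 lungs asked what adding the anti-IL-21R antibody changed. EdgeR's quasi-likelihood test called 0 of the 34 chains in either direction, against 9.02% of all genes (4.67% higher, 4.35% lower). At an unadjusted p under 0.05, 1 of the 34 chains was higher and 4 were lower. Among all 18556 genes, 4905 were under that limit in either direction. The median was -0.18 for the chains and -0.01 for all genes. Col4a1, Col7a1 and Col23a1 did not overlap and were lower in the combination, and Col11a2 did not overlap and was higher; over all genes 16.5% were lower and 15.7% higher in that way. Col4a1 had 208, 153 and 223 CPM in the combination, against 352, 249.8 and 243 CPM in aged anti-PD-1 libraries, with -0.53 ± 0.16 on the log2 scale (edgeR adjusted p = 0.0555). Col23a1, a transmembrane chain, had 27.0, 27.5 and 31.4 CPM in the combination, against 35.2, 44.3 and 34.7 CPM in aged anti-PD-1 libraries (-0.41 ± 0.14; edgeR adjusted p = 0.0758). Col4a2 had 172, 167 and 238 CPM in the combination, against 338, 249.6 and 217 CPM in aged anti-PD-1 libraries (-0.48 ± 0.19; edgeR adjusted p = 0.118). Col4a1 alone was called lower with DESeq2 and 0 chains with limma-voom. It was also called with no filter (with Col23a1) and with the replicate number as a block. Scaling by library totals called it together with Col4a2, Col7a1 and Col23a1, a scaling that moved the median of all genes to -0.21. The chains' median was 0.03 with the first aged anti-PD-1 library left out.

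Endothelial markers were lower in 5 of 12 in the combination, with Pecam1 at -0.81 and sums of 1807 to 2302 against 2852 to 3290.2 CPM in aged anti-PD-1 lungs. Pericyte markers were lower in 2 of 10 and smooth muscle markers higher in 2 of 9, with smooth muscle sums of 1091 to 1261 CPM in the combination, against 771 to 976 CPM in aged anti-PD-1 lungs. Squamous epithelial markers were higher in 2 of 8 (sums 12.7 to 47.2 against 10.9 to 20.6 CPM). Basement membrane partners were lower in 5 of 17, among them Pxdn (-0.88) and Lama5 (-0.54), a laminin chain. Fibril-associated genes were higher in 3 and lower in 1 of 25, with Thbs1 at 0.89 and Dcn at 0.61, and adventitial fibroblast markers were higher in 4 of 10. Of 9 receptors Itga1 (-1.04) and Itgb1 (-0.42) were lower, of 25 folding entries Fkbp14 was lower (-0.96), and of 18 degradation genes Mmp9 was higher (1.09). The TGF-beta axis had 2 higher and 1 lower of 19. Over all genes 4.67% were called higher and 4.35% lower. The mitochondrial share was 13.4 ± 1.72% in the combination, against 9.35 ± 2.18% in aged anti-PD-1 lungs, and the haemoglobin share 2.79 ± 1.12% against 1.16 ± 0.131% (SD, n = 3 each), with the second combination library at 3.98%. The part of these in the collagen values was not tested.

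Combination against aged control lungs gave no called gene among 18556 by edgeR's quasi-likelihood test, a background of 0%, although 1228 genes had an unadjusted p under 0.05 and DESeq2 called 34 higher and 34 lower, limma-voom 0. Of the collagen chains 0 were called by any of these, and 1, Col15a1, had an unadjusted p under 0.05. The chains' median was -0.15 against -0.01 over all genes. Only Col23a1 did not overlap, lower in the combination at 27.0, 27.5 and 31.39 CPM against 41.3, 31.43 and 31.47 CPM in aged control libraries. The highest combination and lowest control values were nearly equal. Its log2 fold change was -0.28 ± 0.14 (edgeR adjusted p = 0.782). Over all genes 5.78% were lower without overlap and 3.92% were higher in that way. Col15a1 had the smallest adjusted p of the chains, with 21.1, 10.8 and 13.3 CPM in the combination, against 6.91, 11.4 and 10.6 CPM in aged control libraries (0.65 ± 0.25; edgeR adjusted p = 0.662). Col4a1 had -0.11, with a 95% interval of -0.45 to 0.24, and Col3a1 -0.20, with -0.90 to 0.50. These intervals leave room for changes in either direction.

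The comparisons share libraries: aged anti-PD-1 lungs enter 3 of them and aged control lungs 2. For Col4a1 the log2 values side by side were -0.58 for age under anti-PD-1, 0.42 for anti-PD-1 over control and -0.53 for the combination over anti-PD-1, the last 2 carrying the same 3 libraries with opposite sign. Only the first of these was called (edgeR adjusted p = 0.0283, 0.103 and 0.0555), and its call held in 2 of the 6 fits with a library left out. For Col6a1 the log2 values were -0.64, -0.10 and -0.16, of which only the first was called.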

How the data were processed

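The values were raw read counts per gene for 12 libraries, deposited by the authors without normalization, per the file header. The submitters' processing notes name bcl2fastq 1.8.4, Trimmomatic, HISAT2, featureCounts 1.6.3 and mm10; options, strand setting and annotation release are not given in the sources used here. RNA was extracted with Trizol and made into directional poly(A) libraries, per the labels' protocols. The members and lists were chosen with earlier results of these data known.

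Genes were kept by filterByExpr (minimum count 10, minimum total 15), leaving 18556 of 49585. Libraries were scaled by TMM, and 1 edgeR quasi-likelihood model (edgeR 4.0.16, R 4.3.3) with 4 group means was fitted to 12 libraries (8 residual degrees of freedom, common biological coefficient of variation 0.156). F tests were two-sided. The p-values of the 18556 genes were adjusted together by Benjamini and Hochberg, with 0.05 as the limit for a call. Intervals of fold changes are 95%. The fit was tested on simulated data. Between libraries of a group, counts differed by a chi-square of 9.61 to 48.1 per degree of freedom, more than counting error alone gives, so no library was counted as a second deposit of another; this does not show that they are separate mice.

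The naming rule took 16 fixed chains, called chains and up to 3 called genes per list; other named chains, such as Col11a2, Col17a1 and Col7a1, were chosen after their values were seen. Alternatives were DESeq2 1.42.0, limma-voom (limma 3.58.1), other scalings, other filters, a replicate block, fits of the 2 groups alone and leaving out each library. Replicate numbers were not used as pairs in the reported fit, since the labels do not say that they pair samples. Same-numbered libraries had a median residual correlation of -0.012 over 18 pairs. Promoter windows were matched by symbol. Figures used Python 3.11.15 and matplotlib 3.10.9.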

Additional observations from a re-analysis of the deposited data

How the results depend on the processing

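In aged against young anti-PD-1 lungs, the count of lower chains was 8 in the reported fit, 7 with library totals (without Col4a1), 10 with DESeq2 and with limma-voom (adding Col4a3 and Col4a4), 9 with no filter (adding Col2a1), 9 with a mean CPM of at least 1 (adding Col4a4), 11 in the 2 groups alone (adding Col4a3, Col4a4 and Col17a1), and 3 to 11 when a library was left out. Fitting the 2 groups alone also called 1 chain higher (Col11a2), and no chain was higher when a library was left out. The count of all genes ranged over the left-out libraries from 711 to 1159 higher and from 449 to 1084 lower. For anti-PD-1 over control in aged lungs it was 304 to 932 higher and 303 to 1063 lower, 559 lower with library totals, and 508 higher and 373 lower in the 2 groups alone. No filter called 1 chain lower there (Col2a1), and 0 to 1 chain was higher when a library was left out (Col7a1, without the first control library). In combination against aged anti-PD-1 lungs, 4 chains were lower with library totals, 1 with DESeq2 and 2 with no filter. All genes numbered 361 higher and 2677 lower with library totals, 1357 higher with DESeq2, and 127 to 743 higher and 133 to 696 lower when a library was left out. In combination against aged control lungs, DESeq2 called 34 higher and 34 lower, no filter 5 higher and 6 lower, and leaving out a library 0 to 13 higher. A tally took the 16 fixed chains for age, and Col1a1, Col3a1, Col4a1 and Col4a2 in the other comparisons. Called chains and the 3 with the smallest adjusted p of each comparison were added. In it 467 values kept direction and side of the threshold, 22 turned sign, 17 gained a call and 19 lost one. Other named chains, such as Col11a2, Col17a1, Col2a1 and Col7a1, lay outside the tally, so their gained calls are not in it. Without a call in any case, the sign of Col18a1 turned with library totals (0.012) and with scaling without mitochondrial, haemoglobin and immunoglobulin genes (0.0054). When a library was left out, aged over young anti-PD-1 values ranged over -0.24 to 0.13 for Col18a1, -0.084 to 0.18 for Col15a1 and -0.33 to 0.022 for Col6a3. In aged anti-PD-1 over control they ranged over -0.28 to 0.51 for Col1a1 and -0.33 to 0.53 for Col3a1, in combination over anti-PD-1 over -0.42 to 0.17 for Col1a1 and -0.43 to 0.12 for Col3a1. In combination over control they ranged over -0.22 to 0.047 for Col4a1, -0.30 to 0.028 for Col4a2, -0.29 to 0.27 for Col1a1 and -0.44 to 0.29 for Col3a1. Causes of these changes were not tested.

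With replicate number as a block, 8 chains were lower in aged than young anti-PD-1 lungs, and 1 chain, Col4a1, was lower in the combination than in aged anti-PD-1 lungs (0 without the block). The labels do not say that the numbers pair the libraries. Same-numbered residuals correlated from -0.169 to 0.171 over 18 pairs, which cannot show whether same-numbered libraries were handled together.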
